A study of Mus musculus with 20 samples.

Results

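The genes of the core pluripotency transcription factors were examined as 10 loci in mouse embryonic stem cells (mESCs). The members were Pou5f1 (OCT4), Sox2, Nanog, Klf4, Klf2, Esrrb, Tfcp2l1, Zfp42 (REX1), Prdm14 and Tbx3, taken from a list of gene names. A locus was taken as the gene with 100 kb on each side, which gave windows of 202.1 to 360.5 kb on build mm10. These windows held 504 of the 136043 peaks of all lists. The 10 genes were read against all 21755 protein-coding genes of chromosomes 1 to 19 and X.

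ChIP-seq with antibodies against CTCF, MAZ and RAD21 was performed in E14 mESCs grown with LIF and 2i. All 4 conditions shared a CTCF gene fused to an auxin-inducible degron (AID), a tag that leads to degradation of the protein when auxin is added. WT cells had the degron and no auxin, ΔCTCF cells had auxin for 2 days, ΔMAZ cells were a Maz knockout of the degron line without auxin, and ΔCTCF/ΔMAZ cells were that knockout with 2 days of auxin. The knockout carried the clone label B2 in all its libraries, so clone and genotype cannot be told apart. Of the 20 samples, 12 had a peak list, 1 for each antibody and condition, and the other 8 were not analysed here. Every value therefore comes from a single library without a replicate, and no p-values are given. The lists hold called peaks only, with no expression values.

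Cohesin is a ring complex that extrudes chromatin loops, and RAD21 is one of its subunits. CTCF is a zinc finger protein that blocks extruding cohesin in an orientation-dependent way, and MAZ is a zinc finger protein that binds G-rich DNA, often at promoters. OCT4, SOX2 and NANOG form the core of the pluripotency network, KLF4 and KLF2 are Krüppel-like factors that support self-renewal, and ESRRB, TFCP2L1, TBX3, PRDM14 and the marker REX1 are characteristic of the naive state that 2i medium maintains. Several of these genes are known for distal enhancers in mESCs, and cohesin is known to occupy some of them without CTCF.

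At the 10 loci, CTCF was called at 80 peaks in WT and 16 in ΔCTCF, and in the knockout at 80 peaks before and 14 after auxin. MAZ was called at 25 peaks in WT and 22 in ΔCTCF, and at 0 in both knockout conditions. RAD21 peaks numbered 66 in WT and 91 in ΔCTCF, and 78 in ΔMAZ against 32 in ΔCTCF/ΔMAZ. The RAD21 count was thus higher in ΔCTCF than in WT at these loci, while the full RAD21 list was shorter, with 17912 peaks against 20371. The median count per locus of RAD21 was 5.5, 8.0, 7.0 and 3.0 in WT, ΔCTCF, ΔMAZ and ΔCTCF/ΔMAZ, against 3.0, 2.0, 3.0 and 1.0 over the same windows of all protein-coding genes. For CTCF the medians were 5.0, 1.0, 5.0 and 0.5 against 4.0, 0.0, 4.0 and 0.0, and for MAZ they were 2.5 in WT and ΔCTCF against 1.0 in both.

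**Figure D1:**
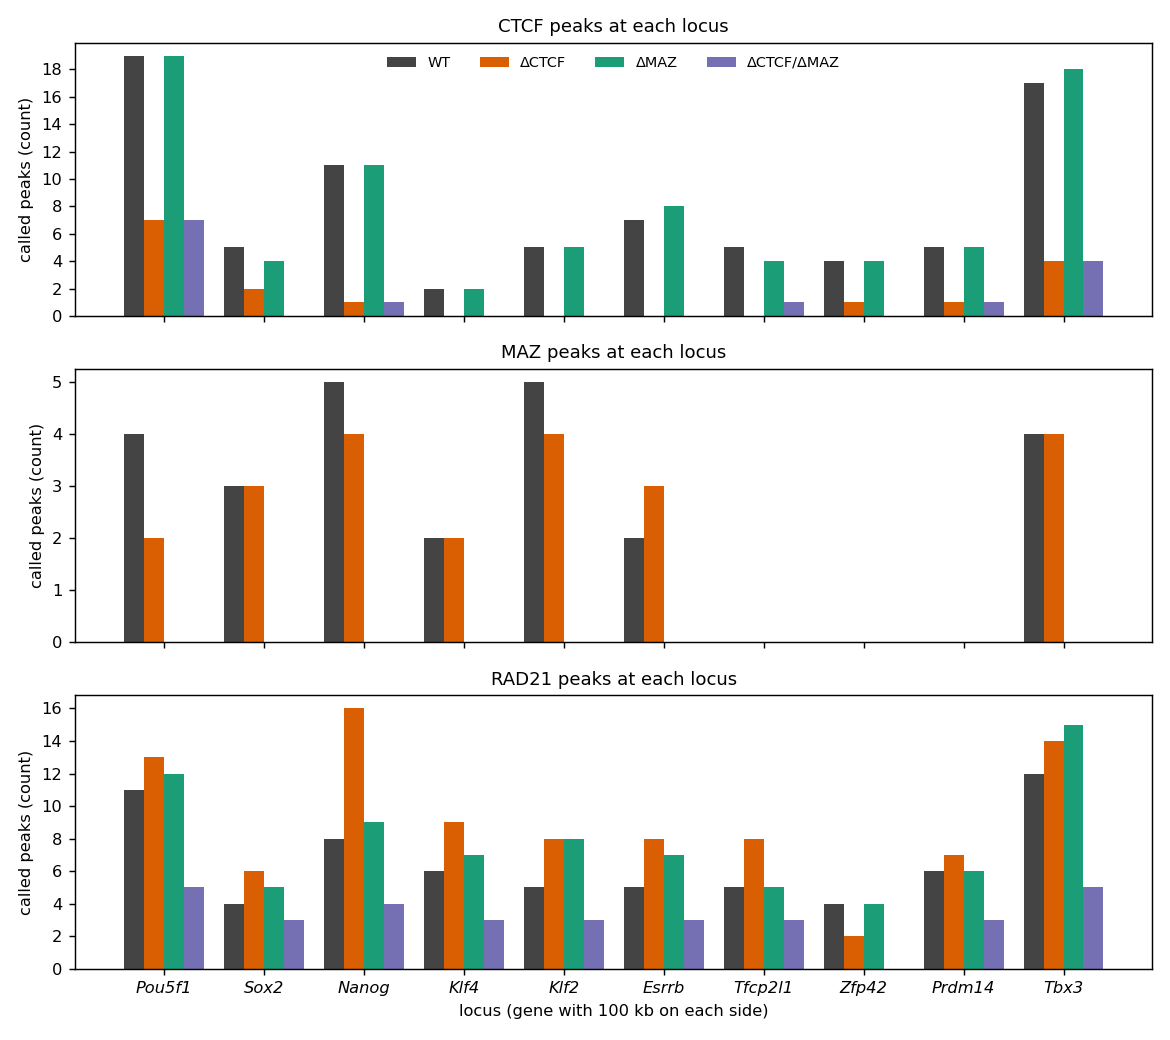
Bars give the number of called peaks (count, y axis) in each of the 10 locus windows (x axis) for CTCF, MAZ and RAD21 in the 4 conditions, with 1 library per bar. The RAD21 bar of ΔCTCF is above that of WT at every locus except Zfp42, where it is 2 against 4. The counts are as called, and at Klf4, Prdm14 and Tbx3 that order would not hold at the depth of WT. No MAZ bar stands in ΔMAZ or ΔCTCF/ΔMAZ.

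RAD21 peaks were more numerous in ΔCTCF than in WT at 9 of the 10 loci, with the widest gap at Nanog, where 16 peaks stood against 8. Zfp42 was the exception, with 4 RAD21 peaks in WT and 2 in ΔCTCF, and 4 in ΔMAZ against 0 in ΔCTCF/ΔMAZ. In ΔCTCF/ΔMAZ the other 9 loci held 3 to 5 RAD21 peaks each, fewer than in any other condition. The RAD21 libraries differed in depth. The relative depth was inferred from the lowest local background and the smallest peak width of each list. It was 2.18 times higher in ΔCTCF than in WT and 2.34 times higher than in ΔCTCF/ΔMAZ. With pileup and background scaled down, 74 of the 91 RAD21 peaks of ΔCTCF would have passed at the depth of WT and 68 at the depth of ΔCTCF/ΔMAZ, both above the counts of 66 and 32 called there. The ΔCTCF peaks that would have passed at the depth of WT did not outnumber the WT peaks at Klf4, Prdm14, Tbx3 and Zfp42. With a −log10 q of at least 5 the gap to WT was smaller, with 66 peaks in ΔCTCF and 62 in WT. When the 4 RAD21 lists were cut to the length of the shortest, 17 peaks of WT remained at the loci, against 40 of ΔCTCF, 20 of ΔMAZ and 32 of ΔCTCF/ΔMAZ.

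To ask which CTCF sites of the pluripotency loci were still called after auxin, peaks were matched between lists by an overlap of at least 1 bp. Of the 80 CTCF peaks of WT at the loci, 16 were called in ΔCTCF (20%, Wilson 95% interval 12.7 to 30), against 8.83% of the whole list. In the Maz knockout background 14 of 80 were called after auxin (17.5%, 10.7 to 27.3), against 9.72% of the list. All such intervals cover counting error over these peaks only. Between WT and ΔMAZ, 71 of 80 CTCF peaks were shared (88.8%, 80 to 94), against 85.5% of the list. The WT sites called in ΔCTCF were unevenly spread, with 7 of 19 at Pou5f1, 4 of 17 at Tbx3, 2 of 5 at Sox2, 1 each at Nanog, Zfp42 and Prdm14, and none at Klf4, Klf2, Esrrb and Tfcp2l1. In ΔCTCF/ΔMAZ the 14 sites were 7 at Pou5f1, 4 at Tbx3 and 1 each at Nanog, Prdm14 and Tfcp2l1. Without Pou5f1 the share was 14.8% (7.96 to 25.7) in ΔCTCF and 11.5% (5.67 to 21.8) in ΔCTCF/ΔMAZ.

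The CTCF sites that were called after auxin were strong ones in WT. Strength is given as fold enrichment, the read pileup at the summit over the local background, which can be compared within a list and not between libraries. The 16 had WT fold enrichments of 14.78 to 55.26 with a median of 30.93, and the 64 others ranged from 4.96 to 38.27 with a median of 10.98. The corresponding medians over the whole list were 26.71 and 12.44. The WT and ΔCTCF lists were also cut to equal length, keeping the peaks with the highest −log10 q. Of the 12 CTCF peaks of WT then left at the loci, 9 were called in ΔCTCF (75%). The value over the cut list was 42.8%, so the share depends on how far down the WT list is read. The CTCF library of ΔCTCF was also the shallowest of the 4, with WT at 1.58 times its depth, while that of ΔCTCF/ΔMAZ was the deepest at 1.81 times.

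CTCF stops cohesin according to the direction of its motif, so the motif was read at each CTCF summit. A 19-base matrix with the letters NGCCANNAGGGGGCGCNNN was built from 1500 CTCF peaks of WT outside the loci and searched on both strands. Of the 80 CTCF summits of WT at the loci, 54 had a match within 50 bp (67.5%, 56.6 to 76.8), against 71.9% of all summits of the list. The score limit for a match was set so that 1% of flanking windows of the same length pass. That share was therefore fixed in advance and is not a measured background. The motif pointed toward the start of the member gene at 31 of 54 matches (57.4%, 44.2 to 69.7). A match was present at 13 of the 16 peaks called in ΔCTCF (81.2%) and at 41 of the 64 others (64.1%), against 83.4% and 70.7% over the whole list. At the 20 CTCF peaks with RAD21 still called in ΔCTCF/ΔMAZ, 12 motifs pointed toward the gene and 3 away, and at the other 60 these were 19 and 20. Divided by RAD21 in ΔCTCF instead, 14 pointed toward and 7 away where it was called, and 17 and 16 where it was not. Directions relative to other genes were not computed, so these counts have no background. The strongest matched CTCF peak of each locus, where there was one, and further peaks named below are shown as 29 bases read along the motif strand, with the 19 motif bases in capitals, on mm10 with sequence from RefSeq GRCm38.p6. Positions are in kb from the first annotated start of the gene, negative before it in the direction of transcription.
Pou5f1 at -21.76 kb, chr17:35484247-35484275, plus strand, toward the gene: ctagaGGACACTAGGGGGCGCGCTgagct
Pou5f1 at 84.96 kb, chr17:35590988-35591016, plus strand, away from the gene: agtttTGCCACTAGGGGGCTCATGagcac
Sox2 at -9.49 kb, chr3:34640888-34640916, minus strand, away from the gene: actgcGTCCAATAGGGGGCGCTGGcgtga
Sox2 at -2.52 kb, chr3:34647880-34647908, plus strand, toward the gene: aagtcCACCAGCAGGGGGCGCAGCagcca
Nanog at -46.81 kb, chr6:122660662-122660690, plus strand, toward the gene: gcataGTCCAGCAGGTGGCAGGAGagatc
Nanog at 12.65 kb, chr6:122720150-122720178, minus strand, toward the gene: cagggGACCGGTAGGGGGAGCTGCtatcc
Klf2 at -57.77 kb, chr8:72261257-72261285, plus strand, toward the gene: actgtGACCACTAGGGGACACACTtgggc
Esrrb at 72.36 kb, chr12:86433449-86433477, minus strand, toward the gene: gagagAGCCTGTAGGGGGCTCTAGagccc
Tfcp2l1 at 144.55 kb, chr1:118772491-118772519, minus strand, toward the gene: gtaatTACCAGCAGAGGGCGCCGGagcac
Zfp42 at -21.88 kb, chr8:43328851-43328879, minus strand, toward the gene: ttaatGTCCGCTAGAGGGCGACACtaccg
Prdm14 at 76.85 kb, chr1:13050313-13050341, plus strand, toward the gene: gacatTTCCAGCAGAGGGCGCTTCggtgc
Tbx3 at 42.42 kb, chr5:119713054-119713082, minus strand, toward the gene: ctcatGGCCACGAGGGGGCAGCAGagccc
At Klf4 neither CTCF peak had a match within 50 bp.

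To follow cohesin after loss of CTCF, RAD21 peaks were sorted into 3 classes by overlap alone. A WT peak with no partner in ΔCTCF was named lost, a ΔCTCF peak with a WT partner retained, and a ΔCTCF peak without one relocalized. At the loci, 35 of 66 RAD21 peaks of WT were called in ΔCTCF (53%, 41.2 to 64.6), against 38.9% of the list, which left 31 lost peaks. Of the 91 RAD21 peaks of ΔCTCF, 34 were retained and 57 were relocalized (62.6%, 52.4 to 71.9), against 55.9% of the list. In WT, 57 of 66 RAD21 peaks overlapped a CTCF peak (86.4%, 76.1 to 92.7), against 86% of the list. Among those with CTCF, 28 of 57 were called in ΔCTCF (49.1%, 36.6 to 61.7), against 40.3% of the list. Of the 9 without CTCF, 7 were called (77.8%, 45.3 to 93.7), against 29.9% of the list, and 4 of these 7 lay in the enhancer cluster downstream of Klf4.

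The lost RAD21 peaks overlapped CTCF of WT in 29 of 31 cases (93.5%, 79.3 to 98.2), against 83.9% of the list. The retained peaks overlapped CTCF of WT in 28 of 34 (82.4%, 66.5 to 91.7), against 89.3%, and CTCF of ΔCTCF in 12 of 34 (35.3%, 21.5 to 52.1), against 26.2%. The relocalized peaks overlapped CTCF of WT in only 2 of 57 (3.51%, 0.968 to 11.9), against 3.06%, and MAZ of ΔCTCF in 10 of 57 (17.5%, 9.82 to 29.4), against 17.7%. Relocalized peaks were weaker than retained ones within the same ΔCTCF library, with a median fold enrichment of 4.38 (2.60 to 7.31) against 8.35 (3.31 to 25.73). At the depth of the WT library 41 of the 57 relocalized peaks would have passed, and they would have made up 55.4% of the peaks that pass, against 47.9% over the list.

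In ΔCTCF/ΔMAZ, 24 of the 34 retained RAD21 peaks were called (70.6%, 53.8 to 83.2), against 53.2% of the list, and 6 of the 57 relocalized peaks (10.5%, 4.91 to 21.1), against 10.8%. The 6 stood 1 each at Sox2, Klf4, Klf2, Esrrb, Tfcp2l1 and Tbx3, and Nanog, with 12 relocalized peaks, had none. At the depth of the ΔCTCF/ΔMAZ library 35 relocalized peaks would have passed, of which 5 were called (14.3%), against 15% over the list. In ΔMAZ, where CTCF was present, 12 of 57 relocalized peaks were called (21.1%, 12.5 to 33.3), against 10.4%. Relocalized peaks with a MAZ peak in ΔCTCF were called in ΔCTCF/ΔMAZ in 3 of 10 cases and those without in 3 of 47. Over the whole list these shares were 17.5% of 1774 and 9.4% of 8245. The peaks with MAZ also had a higher median strength, 5.23 against 4.12 (fold enrichment), and the part of strength in this was not tested.

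Between the Maz genotypes without auxin, 59 of 66 RAD21 peaks of WT were called in ΔMAZ (89.4%, 79.7 to 94.8), against 83.5% of the list. From ΔMAZ to ΔCTCF/ΔMAZ, 30 of 78 were called (38.5%, 28.4 to 49.6), against 22.4% of the list. When lists were cut to equal length, 13 of 17 RAD21 peaks of WT were called in ΔCTCF (76.5%), against 56.4% of the cut list, and 16 of 20 of ΔMAZ in ΔCTCF/ΔMAZ (80%), against 52.1%. With such lists the classes differed in content, since a WT peak below the new limit no longer counts as a partner. Of the relocalized peaks so defined, 40.7% overlapped CTCF of WT and 48.1% were called in ΔCTCF/ΔMAZ, against 46.1% and 43.8% over the cut list.

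**Figure D2:**
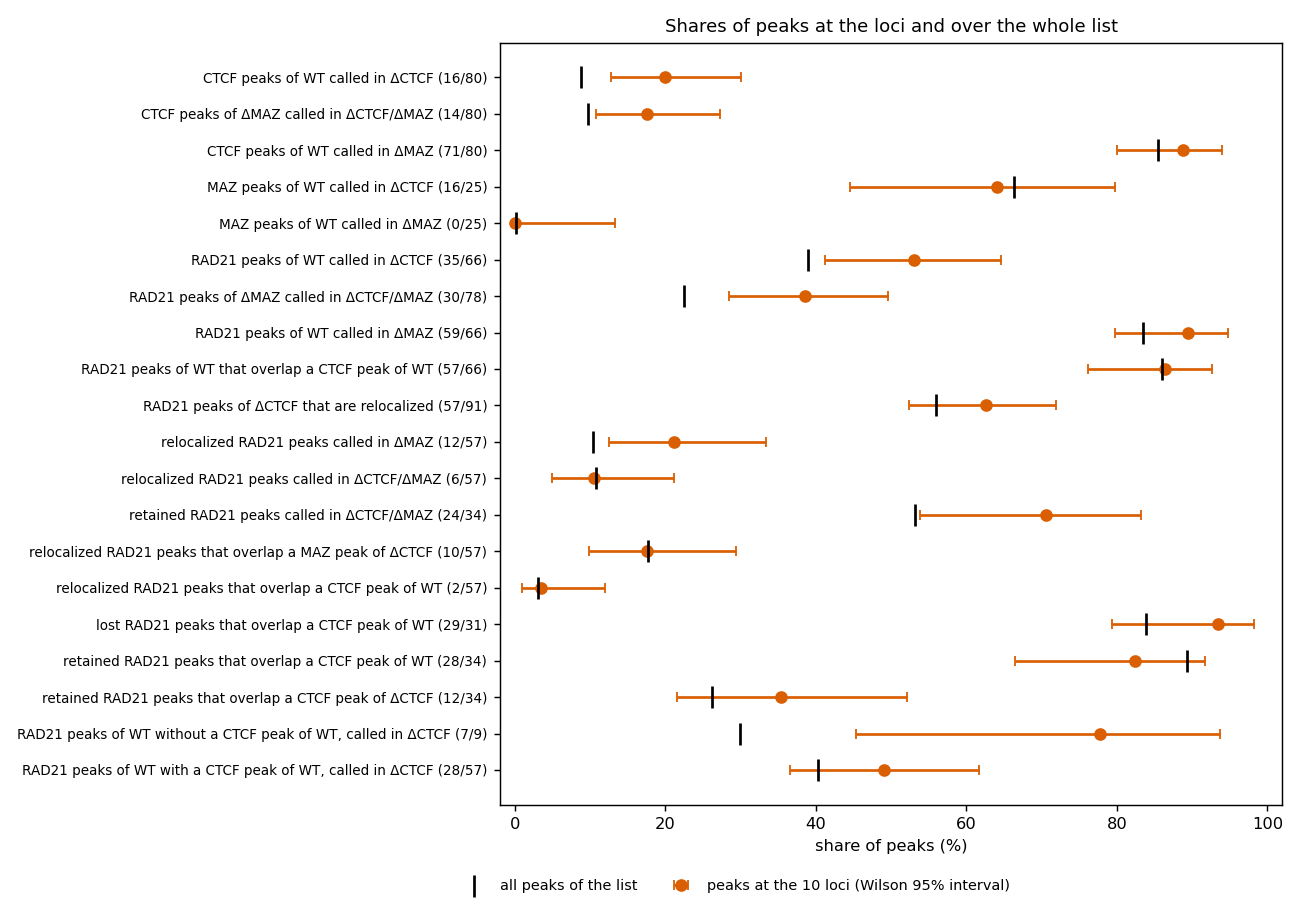
Points give the share of peaks at the 10 loci (percent, x axis) with Wilson 95% intervals, and vertical marks give the same share over all peaks of the list, for each of 20 comparisons (y axis, with the counts in parentheses). The points for CTCF peaks of WT called in ΔCTCF (20%) and RAD21 peaks of WT called in ΔCTCF (53%) lie to the right of their marks (8.83% and 38.9%), and the point for relocalized peaks called in ΔCTCF/ΔMAZ (10.5%) lies at its mark (10.8%).

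The classes were then read by their distance to the pluripotency genes themselves. Of the 57 relocalized peaks, 16 were within 10 kb of the first annotated start of the member gene (28.1%, 18.1 to 40.8), at 8 of the 10 loci. Over the windows of all protein-coding genes, drawn in the same way, 16.2% of the relocalized peaks were that near the gene of the window. With all annotated starts of the members counted, 18 were that close, at 9 loci. Of the 31 lost peaks 2 were within that distance (6.45%, 1.79 to 20.7), and of the 34 retained peaks 3 (8.82%, 3.05 to 23), by either count, against 9.3% and 9.9% over all genes. Of the relocalized peaks 13 lay inside the member gene, 6 of them within Esrrb, the longest gene at 160.51 kb. By locus the relocalized peaks numbered 12 at Nanog, 10 at Tbx3, 6 at Klf2 and Esrrb, 5 at Klf4 and Tfcp2l1, 4 at Pou5f1 and Prdm14, 3 at Sox2 and 2 at Zfp42.

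Short words of known factor motifs were counted within 100 bp of each summit, on both strands. The KLF word GGGNGTGGC was found at 7 of 57 relocalized peaks (12.3%, 6.08 to 23.2), against 5.71% of all relocalized peaks and 0.973% of flanking windows. The ESRRB word TCAAGGTCA was found at 3 of 57 (5.26%, 1.81 to 14.4), against 1.66% and 0.529%. The octamer ATGCAAAT, bound by OCT4, was found at 2 of 57 (3.51%), against 2.38% and 1.24%, and the SOX word CATTGTT at 2 of 57 (3.51%), against 3.57% and 3.34%. The MAZ word GGGAGGG was found at 6 of 57 relocalized peaks (10.5%), against 14.2% and 7.08%. At MAZ peaks of WT it was found at 14 of 25 (56%, 37.1 to 73.3), against 46.6% of the list and 8.47% of flanks. A word is a description of the letters and not of a bound factor.

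Merging overlapping peaks of all lists gave 168 sites at the loci, of which 129 had RAD21, 88 CTCF and 31 MAZ in at least 1 condition. RAD21 was called in all 4 conditions at 23 of the 129 RAD21 sites (17.8%), against 12.2% of the 33738 RAD21 sites of the series, and 20 of the 23 had a CTCF peak in WT (87%, against 95%). At these 20 RAD21 had a median of 23.12 in WT and 11.25 in ΔCTCF, and of 24.41 in ΔMAZ against 9.38 in ΔCTCF/ΔMAZ (fold enrichment). The value was lower than in WT at 16 of the 20 sites in ΔCTCF, at 6 in ΔMAZ and at 18 in ΔCTCF/ΔMAZ. Since libraries are not on a common scale, the median rank within each list is also given, as a percentile that is 100 for the strongest peak. The lists held from 6400 (ΔCTCF/ΔMAZ) to 20872 (ΔMAZ) RAD21 peaks, and a percentile also moves when other peaks enter or leave a list, so it does not put the sites on a common scale either. The median ranks were 87.7, 90.3, 89.0 and 75.7 in the same order. CTCF itself was called after auxin at 11 of the 20, a count without background because its share over the series was not computed.

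The remaining 3 sites with RAD21 in all conditions had no CTCF or MAZ peak in any list. Sites in all conditions without CTCF made up 13% of the 23, against 4.9% over the series. They lay in an intron of Esrrb at 140.6 kb, at 56.97 kb from Klf4 and at 41.89 kb from Prdm14. Their RAD21 fold enrichments in WT, ΔCTCF, ΔMAZ and ΔCTCF/ΔMAZ were 4.25, 8.36, 7.38 and 5.87 at Esrrb. At Klf4 they were 7.17, 8.02, 7.84 and 5.78, and at Prdm14 9.45, 12.12, 5.91 and 6.1. Of the other sites, 45 had RAD21 only in ΔCTCF (34.9% of the RAD21 sites, against 24% over the series). Of these 45, 44 had no CTCF peak in any condition (97.8%, against 98.3%). A MAZ peak was at 8 of the 45, a count without background because its share over the series was not computed. A further 25 had RAD21 only in WT and ΔMAZ (19.4%, against 27.6%), and 24 of these had CTCF in WT (96%, against 91.3%). RAD21 was called only in ΔCTCF/ΔMAZ at 2 sites (1.55%, against 2.31%). No test of these differences was made.

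**Figure D3:**
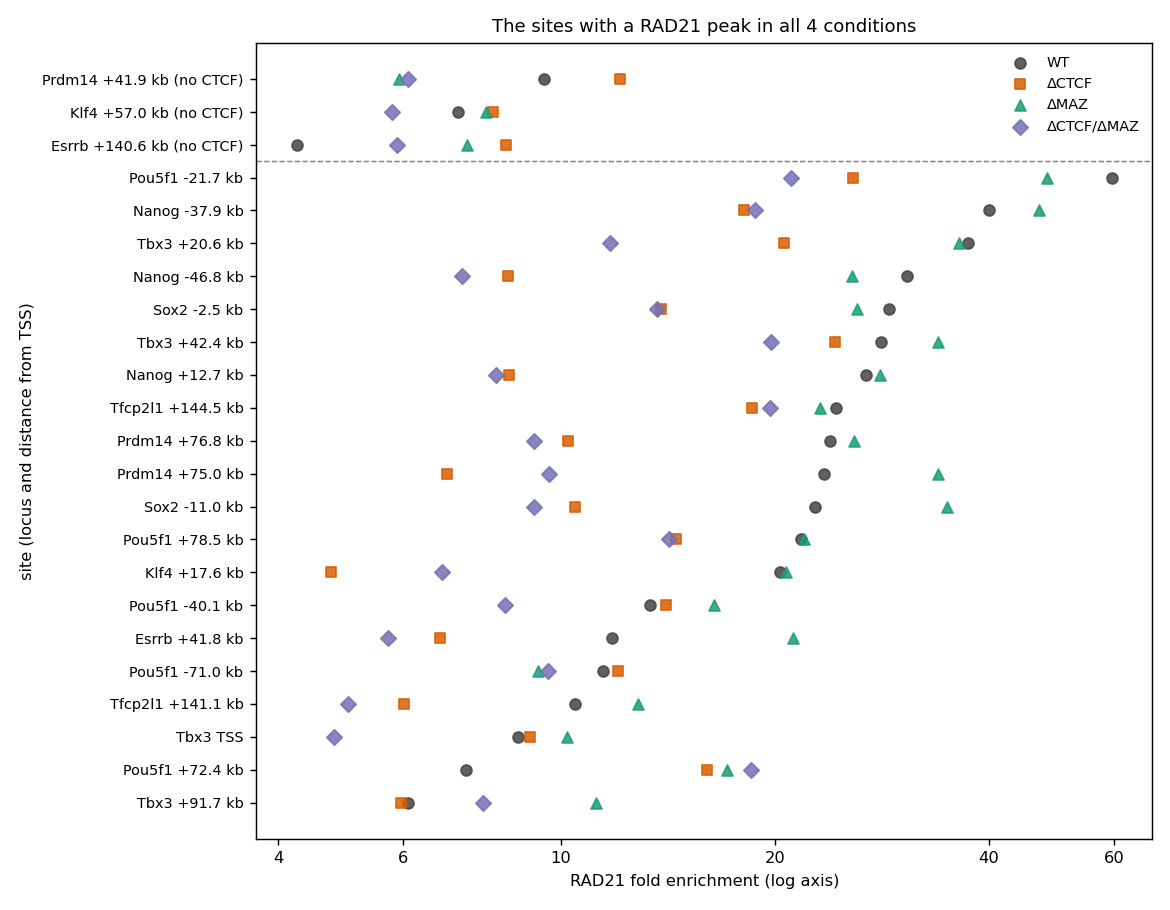
Points give the RAD21 fold enrichment (log axis, x) in WT, ΔCTCF, ΔMAZ and ΔCTCF/ΔMAZ at the 23 sites with a RAD21 peak in all 4 conditions (y axis, locus and distance from the start in kb), with 1 library per point and libraries not on a common scale. The 3 sites above the dashed line have no CTCF peak and lie between 4.25 and 12.12, while at the Pou5f1 site at -21.74 kb the WT point is at 59.56 and the ΔCTCF point at 25.73.

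The core triad is described first. Pou5f1 (ENSMUSG00000024406.16, chr17:35506018-35510772, plus strand) lies beside H2-Q genes of the major histocompatibility complex and had the most CTCF peaks of the 10 loci, 19 in WT. The strongest RAD21 site of all loci stood at -21.74 kb, with RAD21 fold enrichments of 59.56, 25.73, 48.26 and 21.06 in WT, ΔCTCF, ΔMAZ and ΔCTCF/ΔMAZ. CTCF was called there in all 4 conditions, at 37.95, 10.37, 35.31 and 14.74, on a motif that points toward the gene. At 72.37 kb the RAD21 values, in the same order, were 7.35, 16.04, 17.1 and 18.49, over CTCF of 35.81, 14.59, 43.93 and 12.72. Among these neighbours, 3 H2-Q genes carried a CTCF peak of WT with its summit at a similar distance from their start, -4168 bp at H2-Q6, -4180 bp at H2-Q7 and -4212 bp at H2-Q10. Reads were mapped at the default settings of Bowtie 2, which report a single alignment per read, and the quality limit applied afterwards is not given in the sources used here, so the peaks of that stretch are uncertain.

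Pou5f1 has a proximal and a distal enhancer close before its start, at which enhancer positions, as for all enhancers here, are approximate and from general knowledge. MAZ was called at the start itself with 6.75 in WT and 7.35 in ΔCTCF, and at the distal enhancer at -1.94 kb with 6.90 and 8.80. A weaker MAZ peak at the proximal enhancer at -0.73 kb, of 3.76, was called in WT only. RAD21 was called at the distal enhancer in ΔCTCF alone, with a fold enrichment of 2.92 that had a rank percentile of 1.6 in its list and would not have passed at the depth of WT. The 121 bases around the MAZ summit of the distal enhancer are shown because they hold the MAZ word, in capitals, on the strand of the gene at chr17:35504015-35504135.
Pou5f1 distal enhancer: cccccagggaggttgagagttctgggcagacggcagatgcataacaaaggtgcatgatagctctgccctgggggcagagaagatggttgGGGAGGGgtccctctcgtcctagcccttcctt

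Sox2 (ENSMUSG00000074637.7, chr3:34650405-34652461, plus strand) lies within an intron of the noncoding gene Sox2ot. It had 5 CTCF peaks in WT, of which the 3 strongest stood at -11.03, -9.46 and -2.5 kb. The -2.5 kb peak, closest to the SRR1 enhancer, had CTCF at 14.78 in WT, 8.11 in ΔCTCF and 17.81 in ΔMAZ and no peak in ΔCTCF/ΔMAZ. RAD21 at that site was called in all 4 conditions, at 28.92, 13.85, 26.12 and 13.66. Its motif points toward Sox2, and the motifs at the other two sites point away. No peak of any list was within 2 kb of the SRR2 enhancer. Relocalized RAD21 was called at -0.41 kb with 4.01, at 14.86 kb with 4.71 and at 95.05 kb with 6.91, and the last was also called in ΔMAZ with 5.41 and in ΔCTCF/ΔMAZ with 5.95. That site also held MAZ, at 4.5 in WT and 6.58 in ΔCTCF. The Sox2 control region, the main enhancer of Sox2 in mESCs, begins over 100 kb downstream and so outside the window. RAD21 was called there in all 4 conditions, at 110.96 kb with 8.69, 14.05, 10.81 and 8.24 and no CTCF peak. At 109.67 kb it was called with 26.95, 7.86, 27.80 and 5.49, where CTCF was called at 29.30 in WT and 23.54 in ΔMAZ, and MAZ at 5.73 in WT and 8.54 in ΔCTCF. In the nearer part of the region MAZ was called at 4.91 and 5.34, at 106.49 kb in WT and 106.27 kb in ΔCTCF. RAD21 was called in that part too in all 4 conditions, with no CTCF peak. Its values in WT, ΔCTCF, ΔMAZ and ΔCTCF/ΔMAZ were 5.89, 12.03, 6.95 and 4.02 around the WT summit at 106.48 kb. Around the WT summit at 107.39 kb they were 4.05, 7.18, 7.55 and 8.53.

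Nanog (ENSMUSG00000012396.12, chr6:122707489-122714633, plus strand) had 12 relocalized RAD21 peaks, the most of any locus, but tied with Tbx3 at the depth of WT. Its strongest CTCF site, at -37.9 kb, had CTCF of 55.26, 13.33, 59.55 and 19.46 in WT, ΔCTCF, ΔMAZ and ΔCTCF/ΔMAZ and RAD21 of 39.99, 18.1, 47.1 and 18.77. At -46.8 kb RAD21 was called in all 4 conditions with 30.7, 8.43, 25.67 and 7.25, where CTCF was called in WT (18.48) and ΔMAZ (18.89) only. At 12.65 kb the RAD21 values were 26.89, 8.44, 28.13 and 8.09, and CTCF was likewise called only without auxin. The RAD21 peaks nearest to the 3 known enhancers of the window were called in ΔCTCF alone. Their fold enrichments were 6.27 at -44.41 kb beside the -45 kb enhancer, 6.06 at -4.46 kb and 5.83 at 58.81 kb. The -46.8 kb site is also within 2 kb of the first of these enhancers. MAZ was called beside the -44.41 kb peak, at 4.95, in ΔCTCF only.

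The Krüppel-like factor genes follow. Klf4 (ENSMUSG00000003032.8, chr4:55527143-55532466, minus strand) had only 2 CTCF peaks in WT, at 17.64 and 51.8 kb, with fold enrichments of 25.21 and 38.27 and none after auxin. RAD21 at 17.64 kb was nonetheless called in all 4 conditions, at 20.36, 4.74, 20.7 and 6.81, and RAD21 at 51.8 kb only without auxin, at 12.12 in WT and 12.84 in ΔMAZ. Beyond it lie the E1, E2 and E3 enhancers, which had no CTCF peak. At E1 RAD21 had a pair of peaks in each of WT, ΔCTCF and ΔMAZ. The nearer was 8.89 in WT at 54.36 kb, 10.44 in ΔMAZ at 54.34 kb and 3.31 in ΔCTCF at 54.29 kb, and the last would not have passed at the depth of WT. The farther was 3.16 in WT at 54.97 kb, 5.19 in ΔMAZ at 54.77 kb and 6.61 in ΔCTCF at 55.08 kb. No peak was called at E1 in ΔCTCF/ΔMAZ. At E2 it was called in all conditions, as given above, and at E3 in all but WT, at 4.51, 4.35 and 4.24. MAZ was called at E3 with 5.03 in WT and 4.25 in ΔCTCF. The 121 bases at the E2 RAD21 summit, chr4:55475441-55475561 on the minus strand, are shown as a site with RAD21 in every condition and hold none of the 5 words.
Klf4 E2: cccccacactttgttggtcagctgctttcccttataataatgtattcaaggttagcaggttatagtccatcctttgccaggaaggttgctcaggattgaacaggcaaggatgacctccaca

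Klf2 (ENSMUSG00000055148.7, chr8:72319033-72321656, plus strand) had 5 CTCF peaks in WT, of 5.1 to 20.32, and none after auxin. Its strongest RAD21 peak of WT, 21.1 at 46.95 kb over CTCF of 15.36, was called only in WT and ΔMAZ. Of its 6 relocalized RAD21 peaks, 3 were also called in ΔMAZ, at -2.83 kb (4.38), at the promoter (6.46) and at 15.44 kb (7.1). The others, at 3.95 kb (3.8), 16.47 kb (4.43) and 57.55 kb (4.05), were called in ΔCTCF alone. At 14.68 kb RAD21 without CTCF was called in WT, ΔCTCF and ΔCTCF/ΔMAZ at 5.65, 5 and 5.04. The MAZ peaks at that site had 5.11 in WT and 5.8 in ΔCTCF, and they overlapped the RAD21 peak of ΔCTCF but neither of the other RAD21 peaks.

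The naive-state factors differed among themselves. Esrrb (ENSMUSG00000021255.17, chr12:86361117-86521628, plus strand), an orphan nuclear receptor gene, held all 6 of its relocalized peaks inside the gene. At 41.83 kb RAD21 was called in all conditions at 11.79, 6.75, 21.23 and 5.71 over CTCF that was called only without auxin. At 72.36 kb, where CTCF was strongest in WT (24.64), RAD21 was called only without auxin, at 12.61 in WT and 15.44 in ΔMAZ. Toward the end of the gene RAD21 without CTCF stood at 140.6 kb in all conditions and at 143.37 kb in ΔCTCF (7.31) and ΔMAZ (4.66), the latter site with a MAZ peak of 5.08 in ΔCTCF. The 140.6 kb value of WT, 4.25, had a rank percentile of 1.9, and that of ΔCTCF, 8.36, one of 84.0. MAZ was called at 137.76 kb with 2.77 in WT and 5.14 in ΔCTCF, beside a relocalized RAD21 peak of 3.29. The 121 bases at the 140.6 kb RAD21 summit of ΔCTCF, chr12:86501656-86501776 on the plus strand, hold the ESRRB word in capitals, read on the other strand.
Esrrb intron: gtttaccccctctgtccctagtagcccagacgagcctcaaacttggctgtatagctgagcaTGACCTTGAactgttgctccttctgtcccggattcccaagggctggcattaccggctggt

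Tfcp2l1 (ENSMUSG00000026380.10, chr1:118627945-118685168, plus strand), which encodes a CP2-family factor of the naive state, had no MAZ peak in any condition, and neither did the Zfp42 and Prdm14 loci. At 144.54 kb RAD21 was called in all conditions at 24.34, 18.58, 23.16 and 19.68, and CTCF at 25.3 in WT, 27.14 in ΔMAZ and 10.61 in ΔCTCF/ΔMAZ but not in ΔCTCF. Relocalized RAD21 stood just before the gene, at -2.16 kb with 3.69 and at -1.29 kb with 4.72.

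Zfp42 (ENSMUSG00000051176.6, chr8:43295063-43306980, minus strand), a marker gene of the naive state, was the locus with the fewest peaks after auxin. Its 4 RAD21 peaks of WT, of 4.4 to 12.61, each overlapped CTCF, were called in ΔMAZ as well and were all lost in ΔCTCF. CTCF at -26.74 kb was called in ΔCTCF at 6.76, against 29.96 in WT, with no RAD21 beside it. The 2 relocalized peaks, 3.83 at -13.87 kb and 3.46 at 16.98 kb, were both below the median of 4.85 of their list.

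Prdm14 (ENSMUSG00000042414.7, chr1:13113457-13127163, minus strand) encodes a PR-domain factor that restrains differentiation signals. Besides the site at 41.89 kb, RAD21 was called in all conditions at 74.95 and 76.81 kb, with 23.48, 6.91, 33.97 and 9.61 at the first and 23.91, 10.24, 25.86 and 9.16 at the second. CTCF was called after auxin at the second alone, at 7.41 in ΔCTCF and 6.91 in ΔCTCF/ΔMAZ. RAD21 at -24.1, -11.28 and -7.34 kb was called in WT and ΔMAZ only, and the last of these had no CTCF peak.

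Tbx3 (ENSMUSG00000018604.18, chr5:119670669-119684724, plus strand), a T-box factor gene, had 17 CTCF and 12 RAD21 peaks in WT. RAD21 was called in all conditions at 20.6 kb with 37.39, 20.63, 36.3 and 11.72 and at 42.37 kb with 28.25, 24.27, 33.9 and 19.76. CTCF was called after auxin at the second, at 8.67 and 10.61, and not at the first. At 76.54 kb CTCF was called in all 4 conditions, at 31.89, 7.39, 35.25 and 9.38, while RAD21 was called in all but WT, at 6.33, 9.61 and 10.01. Of the 10 relocalized peaks, 5 lay between -91.2 and -56.09 kb in introns of the antisense gene Tbx3os1.

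**Figure D4:**
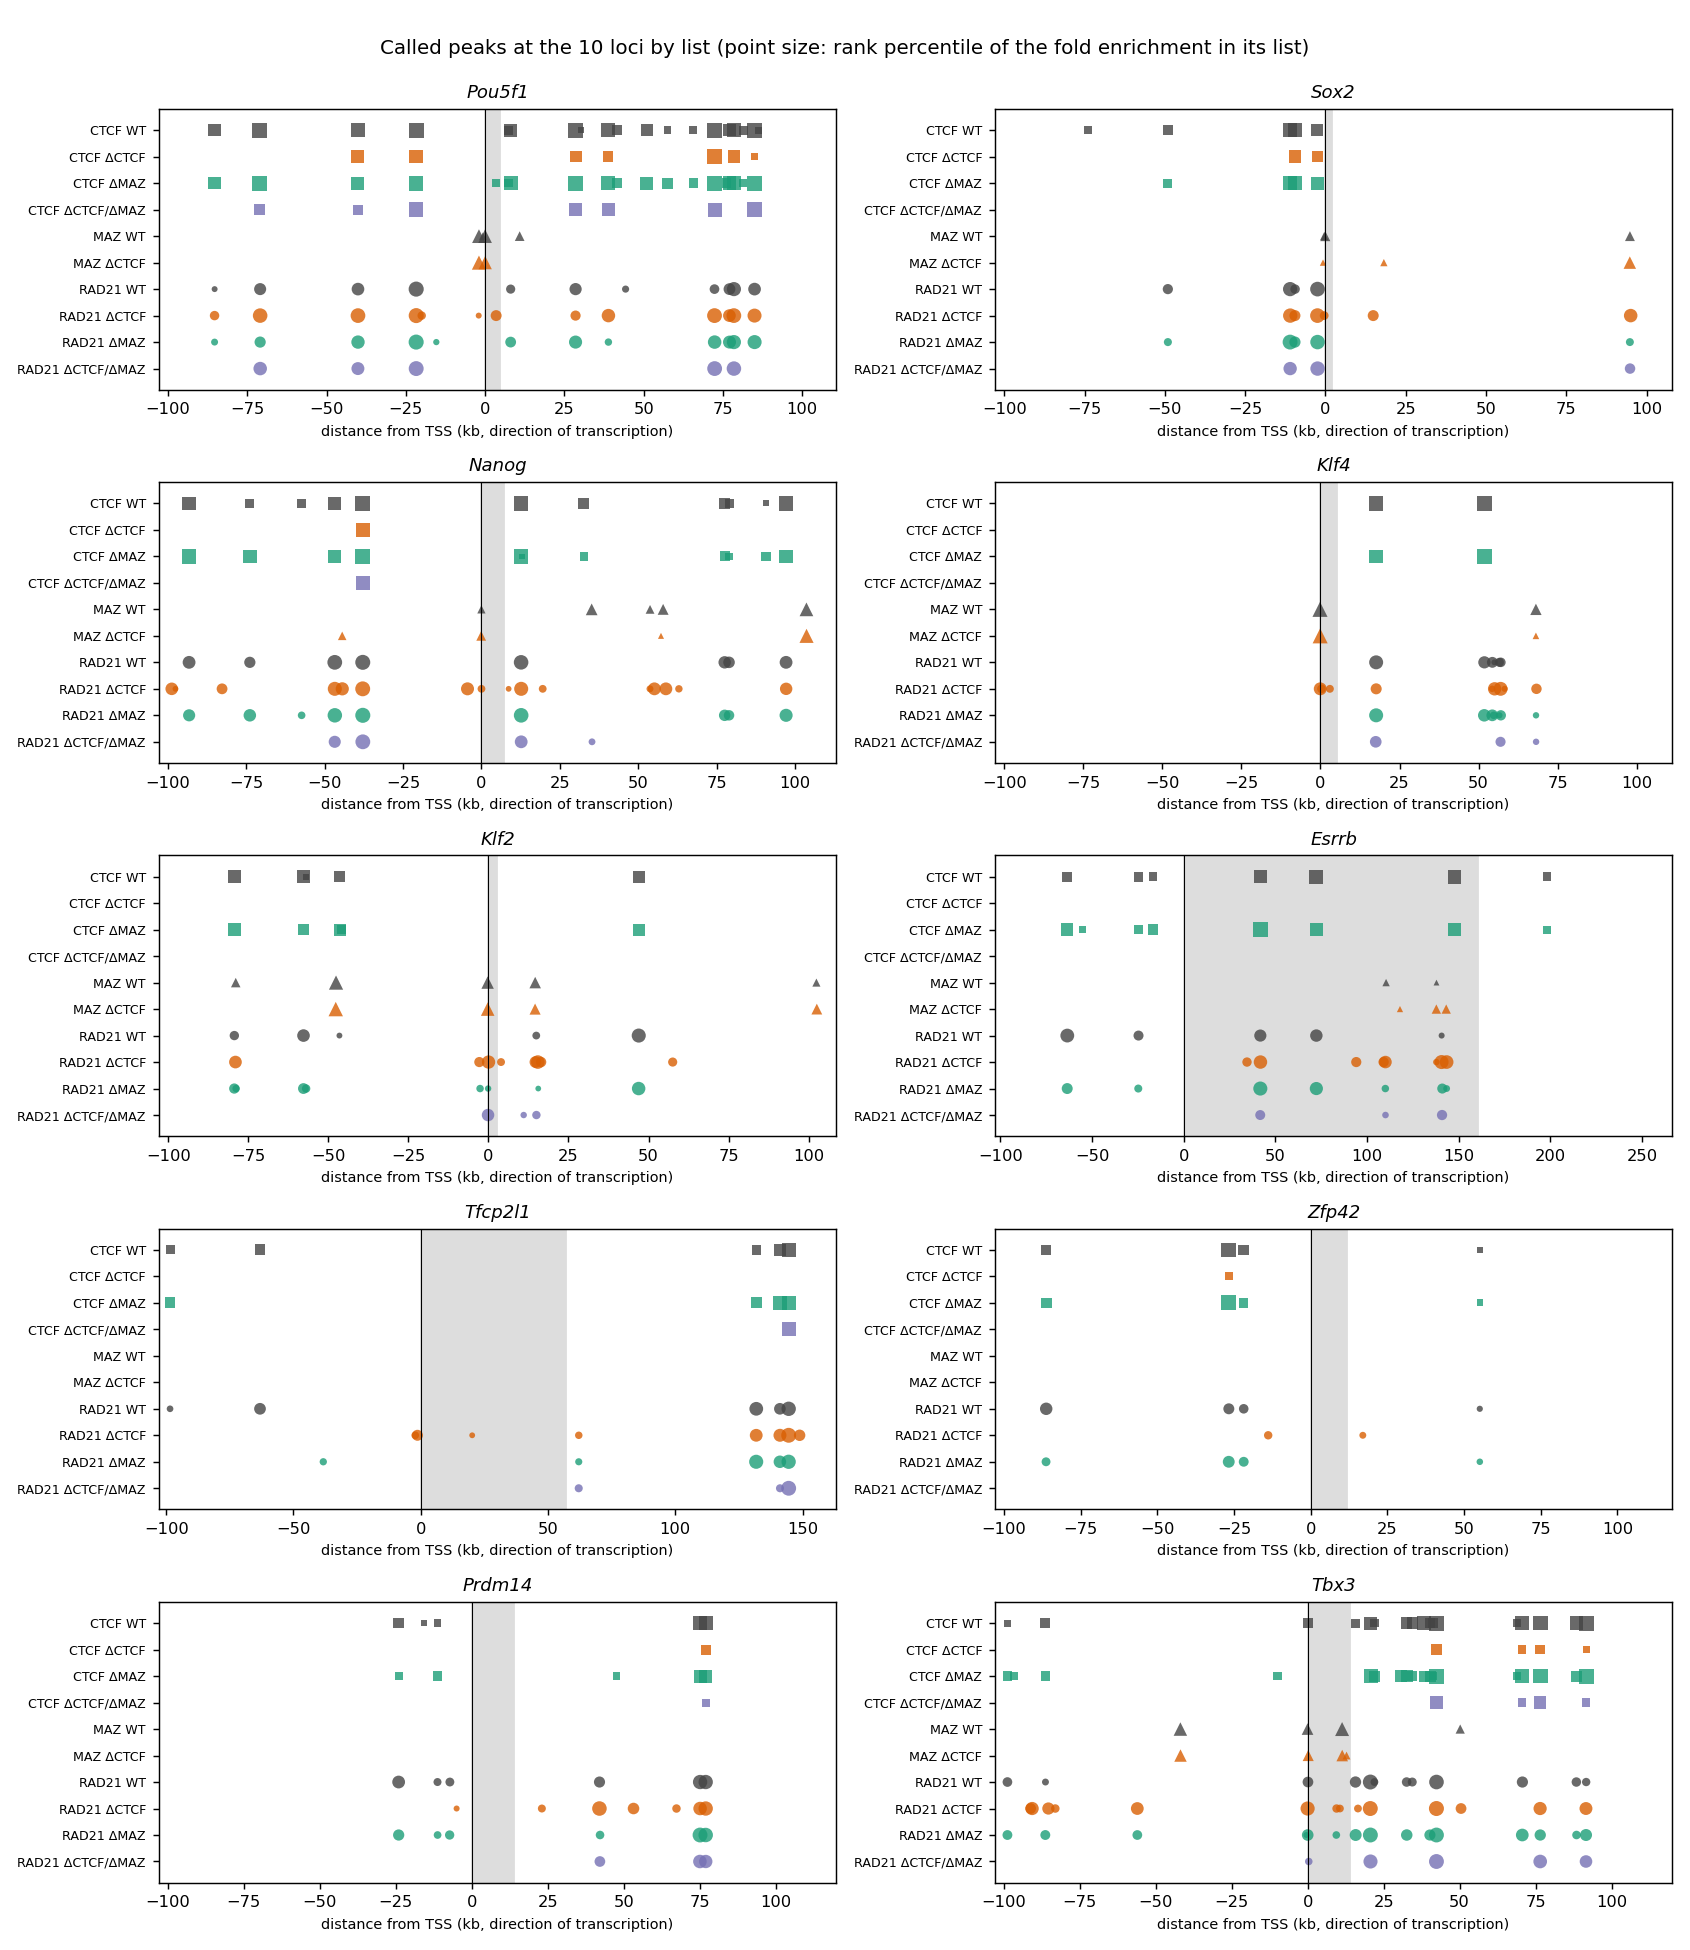
Each panel maps the called peaks of 1 locus by distance of the summit from the gene start (kb in the direction of transcription, x axis) for each list (y axis), with the gene shaded and the point size giving the rank percentile of the fold enrichment within its list. The rows of CTCF in ΔCTCF and ΔCTCF/ΔMAZ hold 16 and 14 points over all panels, and the RAD21 row of ΔCTCF at Nanog holds 16 points against 8 in WT.

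The promoters were read as summits within 1 kb of an annotated start of the gene. MAZ was called at 6 of the 10 promoters in WT and at the same 6 in ΔCTCF, those of Pou5f1, Sox2, Nanog, Klf4, Klf2 and Tbx3, against 21.1% and 21.9% of all protein-coding genes. The whole set includes genes that are not expressed in mESCs, and the lists hold no expression values by which to match them. In ΔMAZ and in ΔCTCF/ΔMAZ no member promoter had a MAZ peak, against 0.0322% of genes in ΔMAZ and 0.0322% in ΔCTCF/ΔMAZ. The strongest was at Klf4, with 14.93 in WT and 18.57 in ΔCTCF, with rank percentiles of 99.2 and 99.3. The other 5 ranged from 4.05 to 6.75 in WT and reached at most 7.65 in ΔCTCF. Over the windows, 16 of the 25 MAZ peaks of WT were called in ΔCTCF (64%, 44.5 to 79.8), against 66.3% of the list, and 0 of 25 in ΔMAZ (0%, 0 to 13.3), against 0.0798%. At the lower depth of the ΔMAZ library 7 of the 25 would have been expected to pass, an estimate that is uncertain because the narrowest peak of that list, from which depth is scaled, was only 49 bp wide.

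RAD21 was called at the promoter of Tbx3 alone in WT, against 7.04% of genes, and at 6 promoters in ΔCTCF, against 18.1%. The 6 were Sox2 (4.01), Nanog (3.72), Klf4 (5.96), Klf2 (6.46), Tbx3 (9.04) and Esrrb (4.43), the last at an internal start 109.01 kb into the gene. In ΔMAZ there were 3, Klf2 (4.35), Esrrb (5.14) and Tbx3 (10.2), against 9.13%. In ΔCTCF/ΔMAZ there were 2, Klf2 (7.72) and Tbx3 (4.80), against 6.15%. With a −log10 q of at least 5 only Klf2 remained of these 2. Within 1 kb, Klf2 had promoter RAD21 in every condition but WT, and so did Esrrb within 2.5 kb, where its ΔCTCF/ΔMAZ summit was 1041 bp from the internal start. Of the 5 promoters at which RAD21 was called in ΔCTCF and not in WT, 4 also had MAZ in ΔCTCF, against 48% of the 3002 such promoters of all genes. CTCF was called at the Tbx3 promoter in WT (8.66), against 9.06% of genes, and at no member promoter in ΔCTCF, ΔMAZ or ΔCTCF/ΔMAZ, against 1.29%, 8.9% and 1.37%. With a distance of 2.5 kb RAD21 was counted at 2 members in WT (11.4% of genes) and 8 in ΔCTCF (20.7%). It was counted at 4 members in ΔMAZ (13.5%) and also 4 in ΔCTCF/ΔMAZ (7.36%). The Nanog promoter peak in ΔCTCF would not have passed at the depth of WT.

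**Figure D5:**
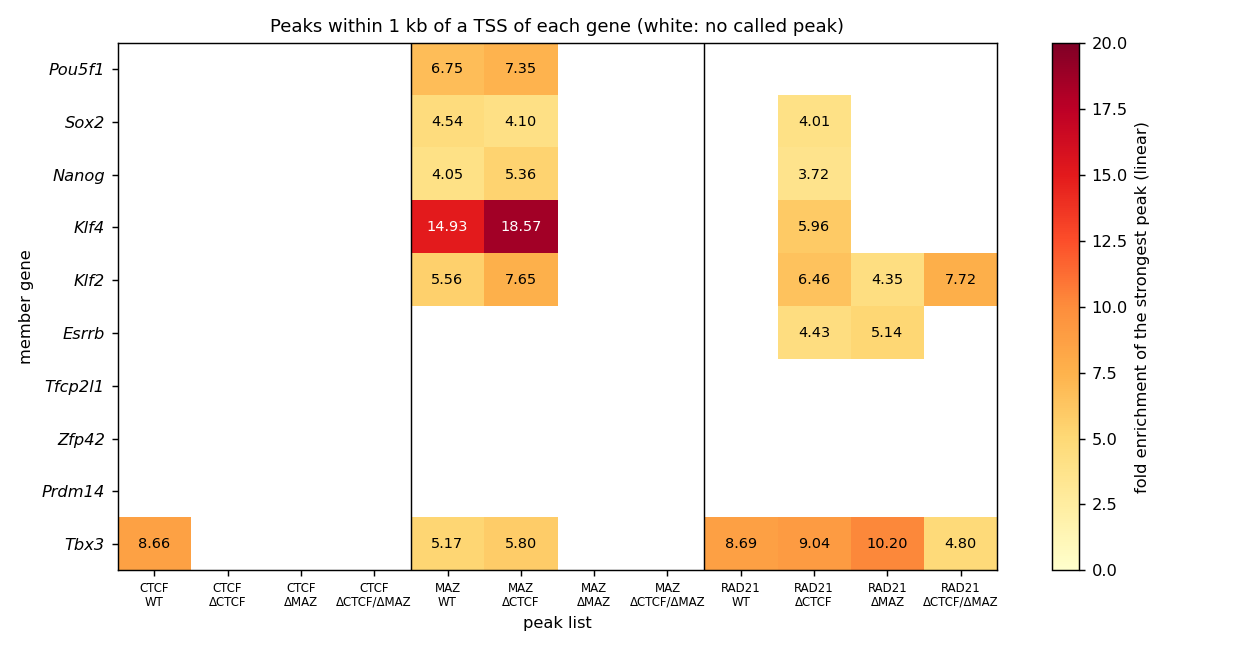
Cells give the fold enrichment (linear colour scale) of the strongest peak within 1 kb of a start of each member gene (y axis) in each of the 12 lists (x axis), with white for no called peak. MAZ cells are filled for 6 genes in WT and ΔCTCF and for none in the knockout, and RAD21 cells for 1 gene in WT and 6 in ΔCTCF.

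The promoter sequences around the MAZ summits of Klf4, Nanog and Klf2 are shown as examples that hold the MAZ word, and MAZ was called there in WT and ΔCTCF and RAD21 in ΔCTCF. Sox2 and Tbx3 also had both, and the MAZ summits at the Sox2 promoter had no MAZ word within 100 bp. At the Klf4 promoter the WT summit had the word within 100 bp, and the ΔCTCF summit, of 18.57, did not. The sequences shown end before the annotated start and are read along the gene, at chr4:55532527-55532766 (minus strand), chr6:122707309-122707488 (plus strand) and chr8:72318733-72318912 (plus strand). Capitals mark the MAZ word, which lies on the opposite strand in each and so reads CCCTCCC, and at Klf2 also the KLF word that overlaps it.
Klf4 promoter: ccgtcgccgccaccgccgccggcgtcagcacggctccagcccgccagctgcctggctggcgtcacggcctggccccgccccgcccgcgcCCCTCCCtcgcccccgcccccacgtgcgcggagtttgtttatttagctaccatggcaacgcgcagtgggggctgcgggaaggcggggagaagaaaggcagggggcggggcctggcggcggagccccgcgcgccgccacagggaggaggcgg
Nanog promoter: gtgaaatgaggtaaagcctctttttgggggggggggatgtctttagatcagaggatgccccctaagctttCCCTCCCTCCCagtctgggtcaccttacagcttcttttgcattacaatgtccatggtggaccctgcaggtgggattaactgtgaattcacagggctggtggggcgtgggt
Klf2 promoter: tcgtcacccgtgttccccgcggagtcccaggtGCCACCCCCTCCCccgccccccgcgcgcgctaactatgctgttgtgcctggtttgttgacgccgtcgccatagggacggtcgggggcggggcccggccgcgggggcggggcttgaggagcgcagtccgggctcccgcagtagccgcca
At Nanog the word occurs as a pair of overlapping copies.

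Other pluripotency genes were read at their promoters only, from a list of 18. MAZ was called at 7 in WT (Dppa5a, Etv5, Fgf4, Il6st, Lin28a, Nr5a2 and Sall4) and at 3 in ΔCTCF (Etv5, Nr5a2 and Sall4), against 21.1% and 21.9% of all genes. The MAZ library of WT was 2.65 times as deep as that of ΔCTCF by the same estimate. RAD21 was called at Klf5 in WT, at Il6st, Lifr and Nr5a2 in ΔCTCF, at Lifr in ΔMAZ and at none in ΔCTCF/ΔMAZ, against 7.04%, 18.1%, 9.13% and 6.15% of genes. CTCF was called at none of the 18 in any condition, against at most 9.06% of genes.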

How the data were processed

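ChIP-seq of CTCF, MAZ and RAD21 was read from 12 peak lists of mESCs, 1 library each. The authors mapped reads to mm10 with Bowtie 2 (also named in the submitters' processing notes), filtered them by quality and took out PCR duplicates (SAMtools), and called narrow peaks per library (MACS, macs2 default settings). Whether an input control was used is not given in the sources used here. The deposited columns hold the fold enrichment at the summit (a ratio to local background), the −log10 p-value and −log10 q-value and the summit offset. A Drosophila spike-in was added, and it does not scale the lists.

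Peaks were assigned to the 10 loci with GENCODE vM21 gene models, and matched between lists by an overlap of at least 1 bp (bedtools 2.31.1 as a check, pandas 2.3.3, numpy 2.4.6, pysam 0.24.0, scipy 1.17.1). Of all peaks, 136037 lay on chromosomes 1 to 19, X and Y and ended within RefSeq GRCm38.p6, from which sequence was read. Sites merged overlapping peaks of all lists. Groups came from the sample titles. The comparisons were shares with Wilson 95% intervals, without tests. The lists give no read totals. The pileup was solved from the deposited fold and −log10 p, and 54 of 136043 peaks gave no whole number within 0.001. Relative depth was taken from the lowest background of a list divided by its smallest peak width. Scripts were tested on simulated data. All members were named, and single peaks were described at promoters, at listed enhancers, among relocalized peaks and at the strongest CTCF and RAD21 site of a locus. Further sites were singled out after their values were seen. The members and lists were chosen with earlier results of these data known.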

Additional observations from a re-analysis of the deposited data

How the results depend on the processing

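Recomputed under the alternatives, 129 of 151 values stayed within their interval or within 1.5 times the main count. Of these alternatives, leaving out the Pou5f1 locus was chosen after seeing the data. Cutting lists to equal length moved the most values. The counts at the loci became 12 for CTCF in WT and 12 in ΔMAZ, and 17, 40 and 20 for RAD21 in WT, ΔCTCF and ΔMAZ. The shared CTCF peaks became 75% from WT to ΔCTCF and 75% from ΔMAZ to ΔCTCF/ΔMAZ, and the shared RAD21 peaks 76.5% and 80%. With equal RAD21 lists, 23.5% of WT peaks were lost, 100% of these at CTCF, 40.7% of relocalized peaks were at CTCF of WT, and 48.1% of relocalized and 92.3% of retained peaks were called in ΔCTCF/ΔMAZ. A reciprocal overlap of 50% gave 40.9% of RAD21 peaks of WT called in ΔCTCF and 59.1% lost, 71.8% of them at CTCF. A −log10 q of at least 5 gave 51.5% relocalized and 1 promoter with RAD21 in ΔCTCF/ΔMAZ. Within 2.5 kb the promoter counts were 1 for CTCF in ΔMAZ, 2 for RAD21 in WT and 4 in ΔCTCF/ΔMAZ.

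Single libraries, unequal depth and the absence of a common scale limit every comparison between conditions. No paired analysis was possible because only 1 list per group was analysed and no result came from a test. For the same reason no replicate was left out.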
